A study of Mus musculus with 2 samples.

Results

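Cassette exons are internal exons that a cell can either splice into an mRNA or leave out. When the length of such an exon is a multiple of 3, both forms keep the reading frame downstream, so the gene can make a protein with and without the stretch that the exon encodes. The brain uses many exons of this kind, in synaptic receptors, adhesion proteins, the cytoskeleton and membrane traffic, and RNA-binding proteins set their inclusion during development. A long read shows the exon together with the rest of its transcript, so that the choice at one exon can be read beside the choice at another.

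The exons described here were chosen by their inclusion in these data. They are internal exons of 52 to 300 bp, with a length divisible by 3, that occur in a model of the Known class, which matches an annotated transcript. Inclusion reads hold both junctions of the exon, and skipping reads join the same neighbouring exons directly. Inclusion is the share of inclusion reads among both kinds. It was taken between the pair of neighbouring exons that most reads joined, which was the only pair for 183 of the exons described. For 294 of them this main pair took 90% or more of the reads, and reads between other neighbours are left out. A minimum of 20 reads per library left 44961 internal exons, and 351 exons in 309 genes met the full rule with a mean inclusion of 10% to 90%. The rule fixes that range, so levels of inclusion are given as a description with no test.

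The RNA was from the left cerebral cortex of B6CASTF1/J males, the first-generation cross of C57BL/6J and CAST/EiJ, at 14 days of age. The libraries form 1 group with 2 biological replicates and no treatment, each made from 2 µg of total RNA with ERCC and SIRV spike-ins added. Both samples carry 1 donor identifier and their descriptions mention several males, so each may be a pool, and the spread between them may be technical. The first replicate held 775048 mouse reads and the second 924222. The excitatory neuron marker Slc17a7 stood at 1368 and 1316 CPM (counts scaled by the total of mouse reads) and Nrgn at 1942 and 3525. The oligodendrocyte markers Mbp and Cnp stood at 1836 and 622 CPM in replicate 1 and 1285 and 425 in replicate 2. Striatal markers (Ppp1r1b, Penk, Drd1, Rgs9) summed to 889 and 219.6 CPM, and interneuron markers (Gad1, Gad2, Slc32a1) to 354.8 and 261.8. In bulk tissue, fewer cells of a type and less RNA per cell cannot be told apart, and an intermediate inclusion can be a mixture of cells or a mixture within cells.

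The sequences below are exons on which the results turn. They were read from GENCODE M21 transcripts (mm10) on the sense strand, with the exon in capitals and 15 bases of each neighbouring exon in lower case, so that the lower-case ends join when the exon is skipped. Eif4h and Grin1 are among the exons with most reads, Aplp2, Mprip and Mark3 belong to linked pairs, and Sphkap and Kat5 follow the first exon of the read. The pair in Cttn was chosen after its values were seen.
Eif4h exon of 60 bp, chr5:134624441-134624500, minus strand: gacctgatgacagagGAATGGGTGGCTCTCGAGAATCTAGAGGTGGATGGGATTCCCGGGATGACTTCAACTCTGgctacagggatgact
Grin1 exon of 63 bp, chr2:25311343-25311405, minus strand: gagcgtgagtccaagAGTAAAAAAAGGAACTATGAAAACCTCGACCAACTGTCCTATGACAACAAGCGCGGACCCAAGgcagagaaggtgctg
Aplp2 exon of 168 bp, chr9:31167561-31167728, minus strand: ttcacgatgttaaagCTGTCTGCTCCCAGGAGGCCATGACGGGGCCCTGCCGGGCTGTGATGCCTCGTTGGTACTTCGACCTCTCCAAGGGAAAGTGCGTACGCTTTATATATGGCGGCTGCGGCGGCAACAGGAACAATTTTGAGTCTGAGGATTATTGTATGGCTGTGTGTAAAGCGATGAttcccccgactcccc
Mprip exon of 108 bp, chr11:59741991-59742098, plus strand: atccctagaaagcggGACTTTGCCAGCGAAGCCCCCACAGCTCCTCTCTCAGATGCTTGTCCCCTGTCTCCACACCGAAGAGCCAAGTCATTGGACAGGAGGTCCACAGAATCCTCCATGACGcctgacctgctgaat
Mark3 exon of 159 bp, chr12:111646690-111646848, plus strand: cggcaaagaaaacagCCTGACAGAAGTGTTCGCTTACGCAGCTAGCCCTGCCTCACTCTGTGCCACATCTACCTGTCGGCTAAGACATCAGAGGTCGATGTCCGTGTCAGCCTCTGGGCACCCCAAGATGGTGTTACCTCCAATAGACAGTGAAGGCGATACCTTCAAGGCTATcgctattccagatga
Sphkap exon of 87 bp, chr1:83265969-83266055, minus strand: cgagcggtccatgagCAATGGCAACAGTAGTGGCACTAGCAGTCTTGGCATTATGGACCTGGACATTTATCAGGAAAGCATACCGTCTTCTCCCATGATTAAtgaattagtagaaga
Kat5 exon of 156 bp, chr19:5608802-5608957, minus strand: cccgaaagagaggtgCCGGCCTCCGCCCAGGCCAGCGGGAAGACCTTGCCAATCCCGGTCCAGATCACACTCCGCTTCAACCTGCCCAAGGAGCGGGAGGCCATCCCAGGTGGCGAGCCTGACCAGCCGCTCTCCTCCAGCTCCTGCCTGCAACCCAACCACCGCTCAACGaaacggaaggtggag
Cttn upstream exon of 111 bp, chr7:144452027-144452137, minus strand: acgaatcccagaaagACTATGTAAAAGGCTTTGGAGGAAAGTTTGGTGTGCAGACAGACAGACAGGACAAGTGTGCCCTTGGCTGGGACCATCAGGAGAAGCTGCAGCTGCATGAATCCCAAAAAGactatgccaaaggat
Cttn downstream exon of 111 bp, chr7:144450978-144451088, minus strand: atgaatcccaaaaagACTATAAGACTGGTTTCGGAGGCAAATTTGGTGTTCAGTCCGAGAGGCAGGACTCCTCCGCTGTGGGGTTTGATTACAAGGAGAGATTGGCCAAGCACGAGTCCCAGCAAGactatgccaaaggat

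Of the 12 exons with most reads, 11 lay inside coding sequence and are described here. Of these, 7 had a mean inclusion from 17.4% to 32.5%, 3 from 73.9% to 86.9%, and Eif4h lay between. The 78-bp exon of Mbp, which encodes the main basic protein of myelin, had 308 inclusion and 925 skipping reads in replicate 1 (25%) and 244 and 757 in replicate 2 (24.4%). The 123-bp exon of the same gene stood at 23.9% and 28.6% (unadjusted p = 0.0151, Fisher's exact test, adjusted p = 1). Both Mbp exons were thus skipped in most reads. The oligodendrocyte markers Mbp and Cnp were lower in replicate 2, and their part in the 123-bp value was not tested. The 120-bp exon of Gpm6b, a neuronal and glial membrane glycoprotein, was included in 28.2% and 28.6% of reads between its main neighbours. Those neighbours took 69.0% of its reads, so the values leave out the rest.

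Eif4h, a cofactor of the translation helicase, was the one near an even split. Its 60-bp exon had 291 inclusion and 260 skipping reads in replicate 1 (52.8%) and 322 and 334 in replicate 2 (49.1%), a mean of 50.9% ± 2.64 (SD, n = 2). The exon encodes residues 137 to 157 of a protein of 248.

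Aplp2, a relative of the amyloid precursor protein, included its 168-bp exon in 86.7% and 87.1% of reads. This exon encodes residues 308 to 364, the Kunitz-type protease inhibitor domain. Ap2a1, a subunit of the clathrin adaptor of the plasma membrane, included a 66-bp exon in 80.9% and 78.2% of reads. Ssbp4, a single-stranded DNA-binding protein, included a 60-bp exon in 75.8% and 71.9%. These 3 were included in most reads of both libraries.

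Pja2, a ubiquitin ligase, included a 186-bp exon in 31.0% and 33.9% of reads. Cd47, the cell-surface signal that restrains phagocytes, included a 63-bp exon in 20.2% and 18.6%. Morf4l1, a chromatin-binding protein, included a 117-bp exon in 20.2% and 14.6%. For each of these 11 exons the 95% Wilson intervals of the libraries overlapped. The interval covers counting error only.

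**Figure D1:**
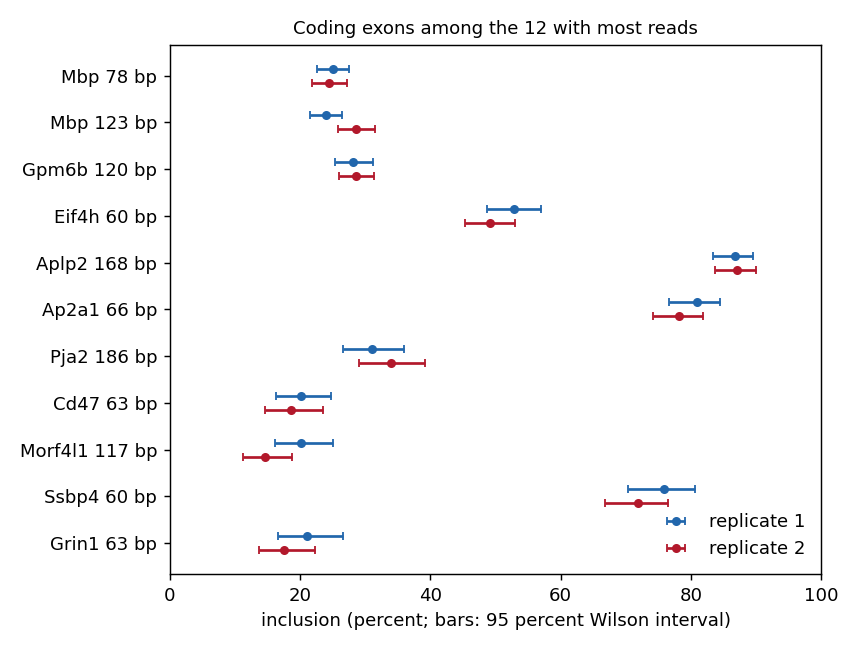
Inclusion (percent, x axis) of the 11 coding exons among the 12 frame-keeping cassette exons with most reads (y axis, gene and exon length). Points are the 2 libraries and bars their 95% Wilson intervals. The intervals overlap for each exon, from a mean of 17.4% in Morf4l1 to 86.9% in Aplp2.

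Grin1, the obligatory subunit of NMDA receptors, had members at both ends of the protein. The 63-bp exon shown above encodes residues 191 to 211, the N1 cassette of the extracellular domain, and had 53 inclusion and 198 skipping reads (21.1%) and 52 and 245 (17.5%). The 111-bp exon encodes residues 864 to 900, the C1 cassette of the cytoplasmic tail, and was included in 69.8% and 80.2% of reads (unadjusted p = 0.0188, Fisher's exact test, adjusted p = 1). Most reads therefore lacked the N1 cassette, and most held the C1 cassette. The main neighbours of the 111-bp exon took 61.8% of its reads, so its values leave out the rest. On the 329 reads that show both choices between the main neighbours, the C1 cassette was included in 55.9% of 34 reads with N1 and 75.9% of 116 without it in replicate 1. In replicate 2 it was included in 76% of 25 and 80.5% of 154. The link did not pass the test (adjusted p = 0.174 and 1, Fisher's exact test). An alternative, described below and chosen after the data were seen, counts an exon as skipped when any intron of the read spans it. By that count the C1 cassette was on 45.3% of 53 reads with N1 and 58.9% of 197 without it in replicate 1. In replicate 2 it was on 43.1% of 51 and 64.2% of 240. The adjusted p values were 0.2135 and 0.0198 by Fisher's exact test, so the pair was not called there.

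Over all 351 members the median of mean inclusion was 61.4%, with quartiles of 30.6% and 80.3%. Members with an inclusion under 50% numbered 147, and 204 reached 50% or more. Exons at 30% to 70% numbered 118 (33.6%). Over all members, 14065 inclusion and 13663 skipping reads were counted in replicate 1, and 15620 and 14985 in replicate 2. The median member had 46 reads in replicate 1 and 56 in replicate 2, which gave Wilson intervals with a median width of 22.9 and 21.3 percentage points.

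The same length and inclusion limits applied to exons whose length is not a multiple of 3 gave 238 frame-shifting exons. Frame-keeping exons were 59.6% of the 589 exons of intermediate inclusion, but 39.1% of the 38036 Known exons of these lengths. Members were 2.36% of the 14882 assessed frame-keeping exons, and the intermediate frame-shifting exons were 1.03% of 23154. The frame-shifting exons lay closer to full inclusion, with a median of 73.9% and 42.4% of them between 80% and 90%, against 26.2% of members. No skipping read between the main neighbours was seen for 13085 frame-keeping exons (87.9%). These are called unskipped below, though reads that skip them between other neighbours, or together with a neighbour, were not counted.

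**Figure D2:**
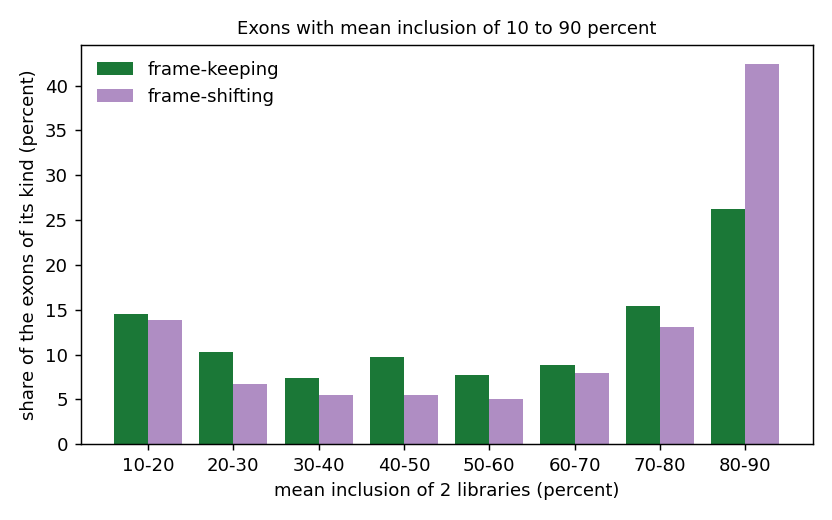
Share of exons (percent, y axis) by mean inclusion of the 2 libraries (percent, x axis) for 351 frame-keeping and 238 frame-shifting exons of 52 to 300 bp. The last bin holds 26.2% of frame-keeping and 42.4% of frame-shifting exons.

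At the lower bound, Fgfr1op2 (114 bp, 10.2%) and Snrk (90 bp, 10.2%) lay just inside, and exons of Gphn (108 bp, 9.94%) and Sgce (108 bp, 9.72%) just outside. At the upper bound, Dcun1d4 (105 bp, 89.9%) and Abhd6 (153 bp, 89.9%) lay just inside, and Rps6kc1 (93 bp, 90.2%) and Chfr (216 bp, 90.2%) just outside.

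Gene groups were compared by the share of their assessed frame-keeping exons that were members, against 2.36% over all genes. The groups cover 116 members, and 235 members belong to none. Postsynaptic scaffolds had 8 members among 94 assessed exons (8.51%), transcription and chromatin genes 20 of 348 (5.75%), cytoskeleton and motor genes 22 of 451 (4.88%), and adhesion genes 9 of 206 (4.37%). RNA-binding and RNA-processing genes had 23 of 683 (3.37%). Below the overall share were membrane traffic genes with 15 of 827 (1.81%), channels, receptors and pumps with 9 of 592 (1.52%), and kinases, phosphatases and GTPase regulators with 10 of 773 (1.29%). The lists were chosen with earlier results of these data known, and no test was made.

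Among the postsynaptic scaffolds, mean inclusion ran from 10.5% to 88.5%. Cnksr2, a scaffold of the postsynaptic density, included a 147-bp exon in 18.7% and 25.4% of reads. Gphn, the scaffold of inhibitory synapses, included a 57-bp exon in 11.7% and 9.23% of reads. Among adhesion genes, Adgrb2, an adhesion G protein-coupled receptor, included a 99-bp exon in 53.8% and 52.9% of reads.

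Among cytoskeleton genes, Dbn1, which encodes the actin-binding protein drebrin of dendritic spines, included a 138-bp exon in 84.8% and 87.7% of reads. This exon encodes residues 321 to 367. Map7d1, a microtubule-associated protein, included a 111-bp exon in 67.7% and 70.4% of reads between its main neighbours, which took 68.65% of its reads. Of the 22 members of this group, 10 were below 50% and 12 at or above.

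RNA-binding genes had a median of 70.6%, with 16 of 23 members at 50% or more. Besides Eif4h, G3bp2, a core protein of stress granules, included a 99-bp exon in 77.9% and 85.6% of reads. In the transcription group, Med25, a Mediator subunit, included a 72-bp exon in 83.3% and 77.1%, and the chromatin reader Zmynd11 a 162-bp exon in 65.9% and 71.3%. Members of this group at 50% or more numbered 13 of 20.

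Kinases, phosphatases and GTPase regulators had the lowest median, 40.9%, with 7 of 10 members below 50%. Pip5k1c, a kinase that makes a phosphoinositide of the synaptic membrane, included a 78-bp exon in 14.4% and 12.5% of reads. Csnk1a1, casein kinase 1 alpha, included an 84-bp exon in 31.1% and 29.3%. Among channels, receptors and pumps, Atp6v1h, a subunit of the vesicular proton pump, included a 54-bp exon in 17.9% and 12.2% of reads.

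Most genes had a single member. Of 309 genes, 270 had 1 member, 36 had 2 and 3 had 3, and 6 members in 3 genes overlap another member. The genes with 3 were Sun1, Map4 and R3hdm2. Sun1, a protein of the nuclear envelope, included its 192-bp exon in 13.0% and 11.4% of reads, its 66-bp exon in 39.2% and 52.3%, and its 111-bp exon in 41.5% and 31.4%. These Sun1 values count reads between the main neighbours only. By the alternative count of any spanning intron, 42.3% of 52 reads with the 66-bp exon held the 111-bp exon in replicate 1. In replicate 2, 31.9% of 69 such reads held it. Of reads without the 66-bp exon, 0 of 47 and 0 of 42 held the 111-bp exon. Map4, a microtubule-associated protein, included a 93-bp exon in 74.2% and 85.7% of reads, a 114-bp exon in 17.9% and 17.2%, and a 222-bp exon in 15% and 25%, the last from 20 and 48 reads. R3hdm2, which holds an RNA-binding domain, included a 102-bp exon in 88.6% and 91.1%, a 54-bp exon in 55.6% and 68.9%, and a 96-bp exon in 71.1% and 75.3%.

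The annotated place of the exons was not used by the rule. Taking for each exon the annotated transcript with most reads that holds it, 291 members (82.9%) lay inside the coding sequence, 22 (6.27%) in the 5' UTR and 1 in the 3' UTR. The start codon lay in 8 members and the stop codon in 19 (5.41%), and 10 lay in transcripts without a coding sequence. Of the frame-shifting exons of intermediate inclusion, 237 could be placed, and 57.8% of them lay inside the coding sequence, 17.3% in the 5' UTR, and 11.8% held the start codon. Of the frame-keeping exons with no skipping read, 96.1% lay inside the coding sequence. These shares are counts with no test.

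The 19 members with a stop codon had a median inclusion of 25.7%, against 62.5% for the 291 inside coding sequence and 46.2% for the 22 in the 5' UTR. Emc10, a subunit of a membrane protein insertase, included an 87-bp exon with a stop codon in 22.3% and 17.7% of reads. Mprip, which links the actin cytoskeleton to myosin phosphatase, included a 66-bp exon with a stop codon in 26.9% and 27.3% of reads. In the 5' UTR, Klhdc3 included a 153-bp exon in 87.7% and 83.2% of reads and Cab39, a scaffold of a kinase complex, a 117-bp exon in 14.3% and 14.8%. These were named for their reads after their values were seen.

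The lengths of members and of the introns around them were set beside those of unskipped frame-keeping exons, with no test. Their median length was 96 bp (quartiles 72 and 138), against 120 bp for unskipped exons. The introns before and after them had medians of 1939 and 2134 bp, against 1069 and 960 bp. Long introns were not particular to members, since frame-shifting exons of intermediate inclusion had medians of 2754 and 2029 bp. GC content had medians of 51.9% in members and 51.4% in unskipped exons. Of the assessed frame-keeping exons up to 75 bp, 4.69% of 2152 were members, and of those longer than 200 bp, 18 of 1166 (1.54%).

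The borders of coding exons fall between codons or inside one. Among the 291 coding members, 133 (45.7%) began at the first base of a codon, 34.7% after 1 base and 57 (19.6%) after 2 bases. Among 12579 unskipped coding exons these shares were 63.7%, 22.6% and 13.7%. Among 137 coding frame-shifting exons of intermediate inclusion they were 40.15%, 31.4% and 28.5%. Leaving out a member that splits a codon joins the codon anew, and in none of the 158 such members did this make a stop codon. For unskipped exons it would do so in 1.53% of 4571.

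Serine codons made up 11.3% of the 10769 codons of coding members and proline codons 8.15%, against 7.01% and 5.16% in unskipped exons. Isoleucine (3.02% against 4.85%), valine (5.27% against 6.52%), lysine (5.01% against 6.37%) and phenylalanine (2.93% against 3.87%) had lower shares. So did leucine (8.99% against 10.07%) and glutamate (6.63% against 7.67%), and some others by less. The plot of codon shares gives all 20 amino acids. Overlapping members share codons, and no test was made.

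**Figure D3:**
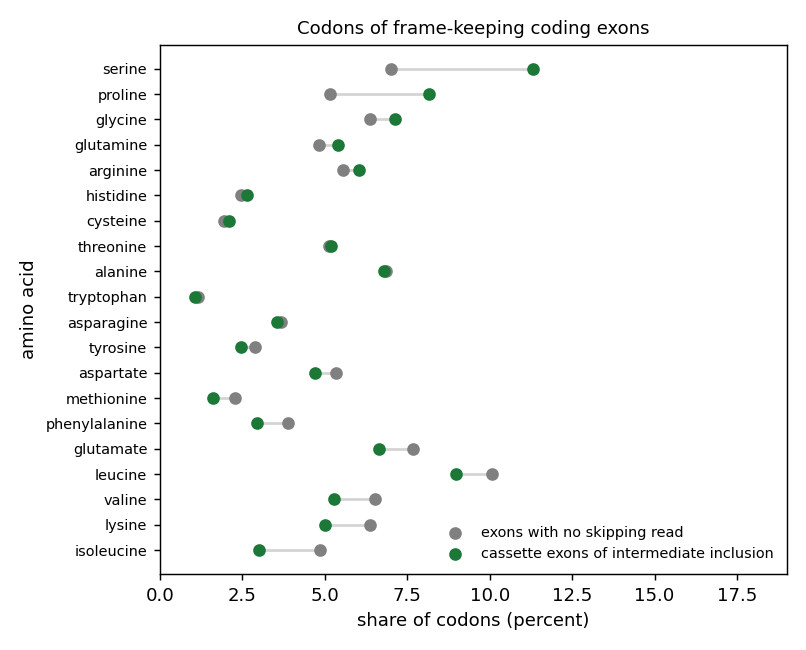
Share of codons (percent, x axis) for each amino acid (y axis) in 291 coding members (green) and 12579 frame-keeping coding exons with no skipping read (grey), ordered by the difference. Serine is at 11.3% against 7.01%, and isoleucine at 3.02% against 4.85%.

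For 304 members (86.6%) an annotated transcript joins the same neighbours without the exon, and for 47 no annotated transcript does. The median inclusion was 54.3% for the 304 and 82.1% for the 47, and 44 of the 47 were at 50% or more. Of these, most reads fell on the 192-bp exon of Zfr, which encodes a zinc finger RNA-binding protein. It was included in 74.7% and 81.4% of reads, with 36 and 35 skipping reads. The upstream Cttn exon came next, included in 37.9% and 44.3% of reads between its main neighbours, with 77 and 98 skipping reads. Those neighbours took 80.2% of its reads. The alternative count by any spanning intron used reads informative for both Cttn exons. There 83 reads held the upstream exon and 79 skipped it in replicate 1, and 111 and 101 in replicate 2. Models of the Known class held 66.4% ± 0.571 (SD, n = 2) of the inclusion reads and 65.5% ± 2.26 of the skipping reads. Chains that join annotated sites in an unannotated way held 19.6% ± 0.189 and 22.4% ± 0.633.

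The rule used the mean of the libraries and not their difference, so the difference was tested with Fisher's exact test over 7491 internal exons of any length that had both kinds of read. It compares 2 libraries, not conditions. At a Benjamini-Hochberg adjusted p of 0.05, 0 of the 7491 exons (0%) and so 0 of the 351 members differed. At an unadjusted p under 0.05 there were 18 members (5.13%) and 99 of all exons tested (1.32%). The shares cannot be compared, since members by their rule have many reads of both kinds. A chi-square test gave 0 members as well.

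The median difference between libraries was 5.54 percentage points in size, and 270 of 351 members differed by under 10 points. Inclusion was higher in replicate 2 for 176 members and lower for 174. For the 63 members with 100 or more reads in each library, the median difference was 2.87 points and the largest 11.3. The Wilson intervals of the libraries were separate for 2 members. Separate intervals were not counted over all exons tested, so this number has no background share. Of the 2, Ktn1 is described, named after its values were seen. Ktn1, a kinesin receptor, included a 72-bp exon in 50.7% and 26.8% of reads, with an unadjusted p of 0.00375 and an adjusted p of 1 by Fisher's exact test.

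**Figure D4:**
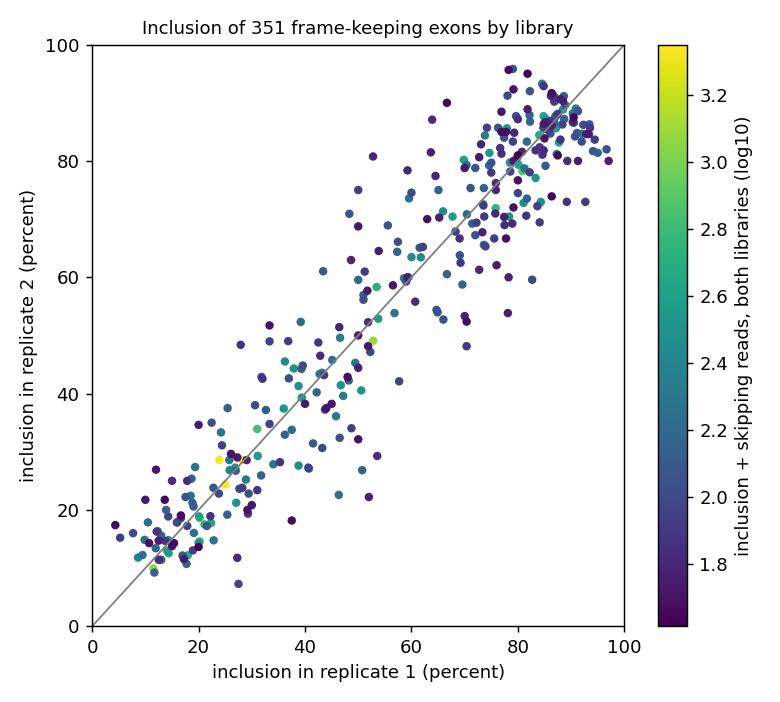
Inclusion in replicate 1 (x axis, percent) and replicate 2 (y axis, percent) of the 351 members, coloured by reads on a log10 scale, with the line of equality. Exons with many reads lie near the line, and 270 of 351 differ by under 10 points.

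Long reads show 2 exons at once, and the link between them was not used by the rule. Pairs of exons in 1 gene were tested by Fisher's exact test in each library, and called where the Benjamini-Hochberg adjusted p was under 0.05 in both with the same sign. Of 136 pairs tested, 10 were called (7.35%). Pairs with a member numbered 74, of which 5 were called (6.76%), a share near the background. Of 18 pairs in which both exons are members, 1 was called. In 4 of the 5 pairs the exons were included together, and in 1 they were included apart. Directions were not counted over all 10 called pairs, so these numbers have no background share.

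In Aplp2 the exon of the protease inhibitor domain was linked to a 36-bp exon downstream. Reads that held the 168-bp exon included the 36-bp exon in 86.2% of 391 cases in replicate 1 and 79.6% of 378 in replicate 2. Reads that skipped it did so in 60% of 60 and 54.5% of 55. The log2 odds ratio was 2.06 (95% interval 1.21 to 2.90) and 1.70 (0.86 to 2.54), with adjusted p = 0.000118 and 0.00219 by Fisher's exact test.

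In Mprip both exons were members. Reads with the 108-bp exon, printed above, included the downstream 66-bp exon in 35.6% of 104 cases and 34.6% of 104. Reads without it included the 66-bp exon in 8.11% of 37 and 5% of 40. The log2 odds ratio was 2.45 (0.77 to 4.14) and 3.04 (1.10 to 4.97), with adjusted p = 0.0128 and 0.00219 by Fisher's exact test. Reads with the 66-bp exon but not the 108-bp exon thus numbered 3 and 2, against 37 and 36 with both.

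In Mark3, a kinase of microtubule-associated proteins, the exons were included apart. Of reads with the 159-bp exon, 0 of 46 in replicate 1 and 1 of 61 in replicate 2 held the 27-bp exon that follows. Of reads without it, 32 of 78 (41.0%) and 22 of 70 (31.4%) held the 27-bp exon. The log2 odds ratio was -6.02 (-10.09 to -1.95) and -4.23 (-6.67 to -1.78), with adjusted p = 9.21e-07 and 0.000156 by Fisher's exact test. A single read in the libraries together held both exons.

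In Srsf9, a splicing factor of the SR family, a 358-bp exon was linked to the 90-bp member downstream. This member lay in the 3' UTR of the annotated transcript with most reads that holds it. The 90-bp exon was included in 75.6% of 41 reads with the 358-bp exon and 13.0% of 46 without it in replicate 1, and in 80% of 40 and 4.26% of 47 in replicate 2. The adjusted p values of Fisher's exact test were 2.93e-07 and 6.84e-12. In Cbarp, a regulator of voltage-gated calcium channels, the 54-bp member was included in 81.5% of 157 reads with an upstream 140-bp exon and in 4 of 12 without it in replicate 1. In replicate 2 it was included in 81.8% of 132 and 0 of 5 (adjusted p = 0.0084 and 0.00432, Fisher's exact test). The Cbarp call therefore rests on few reads that skip the 140-bp exon. The 54-bp member of Cbarp held the stop codon of the annotated transcript with most reads that holds it.

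Entr1, an endosomal protein with a pair of members, passed the threshold in 1 library, and is named after its values were seen. Its 63-bp exon was included in 93.8% of 16 reads with the 69-bp exon and 37.5% of 48 without it, and in 90.9% of 11 and 48.5% of 66 in replicate 2 (adjusted p = 0.00135 and 0.0566, Fisher's exact test).

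**Figure D5:**
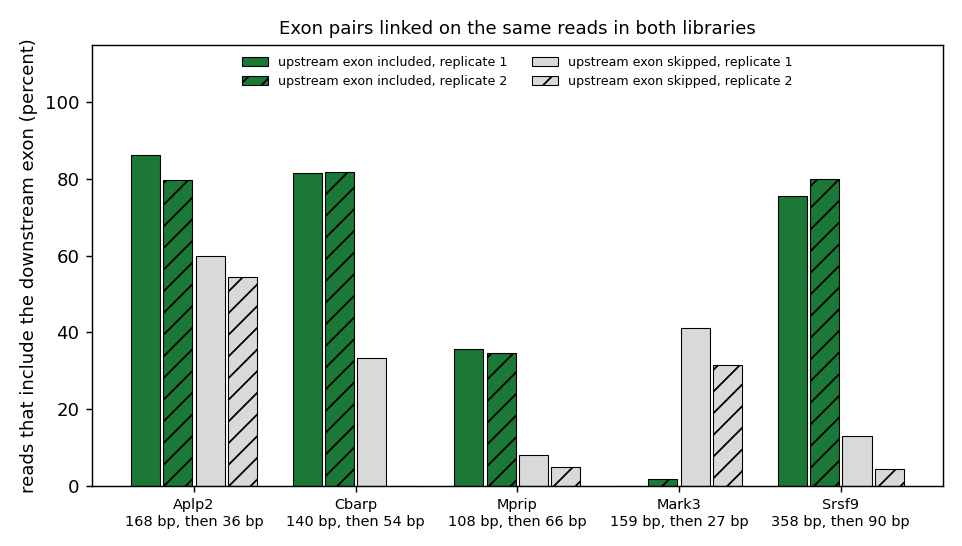
Reads that include the downstream exon (percent, y axis) when the upstream exon of the same read is included (green) or skipped (grey), for the 5 linked pairs with a member (x axis), in replicate 1 (plain) and replicate 2 (hatched). The bar of Mark3 is at 0% and 1.64% when the upstream exon is included, and the other pairs show the opposite order.

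The pairs above need each exon to be judged between its main neighbours. An alternative chosen after the data were seen counts an exon as skipped when any intron of the read spans it, which also takes reads that drop both exons with 1 intron. It tested 369 pairs, called 114 (30.9%), and called 40 of 146 pairs with a member (27.4%), again near the background. Of the 40, 34 were included together. Directions were not counted over all 114 called pairs, so this number has no background share. A read that drops both exons with 1 intron counts both as skipped, so this count favours pairs included together. All 5 pairs described above were called here too. The following genes were named after their values were seen.

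App shows what the main measure leaves out. Its 57-bp exon counts as a member from the 86 reads between its main neighbours, with inclusion of 50% and 75%. Both exons were absent from 687 reads in replicate 1 and 761 in replicate 2, both together were on 20 and 33, and the 168-bp exon alone was on 20 and 9. The 57-bp exon without the 168-bp exon was on 0 reads (adjusted p = 1.35e-26 and 1.94e-48, Fisher's exact test). On reads with the 168-bp exon, inclusion of the 57-bp exon was 50% of 40 and 78.6% of 42, and on the many reads without it the exon was not seen.

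Cttn, which encodes the actin-binding protein cortactin, carries a series of repeats, and the 2 Cttn exons printed above encode 37 codons each. They are identical at 70 of 111 bases (63.1%). Reads that held the upstream exon included the downstream one in 33 of 83 cases and 29 of 111. Reads that skipped the upstream exon included it in 0 of 79 and in a single read among those of replicate 2 (adjusted p = 6.81e-11 and 2.55e-07, Fisher's exact test). The forms seen were therefore both exons, the upstream exon alone, or neither, apart from that single read.

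In Bin1, an endocytic protein that bends membranes, the 93-bp member and a 129-bp exon further downstream were included together. The 129-bp exon was on 98 of 104 reads with the 93-bp exon and 2 of 18 without it in replicate 1, and on 170 of 173 and 1 of 26 in replicate 2 (adjusted p = 3.27e-12 and 5.58e-26, Fisher's exact test). In Mff, a fission factor of mitochondria, the 159-bp and 60-bp members were included together. The 60-bp exon was on 93.5% of 169 reads with the 159-bp exon and 42.9% of 56 without it, and on 89.4% of 179 and 38.4% of 73 in replicate 2 (adjusted p = 1.31e-13 and 6.61e-15, Fisher's exact test).

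The start of the transcript could be set against inclusion for 38 members with at least 2 first exons in use. By Fisher's exact test in each library, 6 of 116 exons tested were called (5.17%), and 2 of the 38 members. Kat5, a histone acetyltransferase, included its 156-bp exon in 68.4% of 19 reads and 64% of 25 from its more used first exon. From the other first exon it was on 0 of 14 and 0 of 10 reads (adjusted p = 0.00146 and 0.0106, Fisher's exact test). Sphkap, an anchoring protein for a kinase, included its 87-bp exon in 31.8% of 22 reads and 30% of 20 from its more used first exon. From the other it was on 8 of 8 and 12 of 12 reads (adjusted p = 0.0319 and 0.00324, Fisher's exact test). These rest on 68 reads for Kat5 and 62 for Sphkap over both libraries.

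The last exon was tested for 15 members, and 0 were called, against 2 of 58 exons tested (3.45%). At an unadjusted p under 0.05 in both libraries there was 1 member, the 120-bp exon of Gpm6b, with log2 odds ratios of 0.83 and 0.62 (p = 0.00218 and 0.00745, Fisher's exact test). No count over the 58 exons was made at this unadjusted threshold, so the member has no background share.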

How the data were processed

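Long-read RNA libraries of left cerebral cortex were compared exon by exon. For each library the authors deposited whole-number read counts per transcript model, with no normalization, and the exons of each model. Per the text deposited beside them, models were built on mm10 with the GENCODE M21 annotation. For the aligner, its version is not given in the sources used here, nor its name. Chains of exons were read from the models, and spike-in models were left out. Inclusion and skipping reads were summed over all classes of model. Tests were two-sided Fisher's exact tests on reads with Benjamini-Hochberg adjustment over all exons or pairs (SciPy 1.17.1). Pairs needed 20 reads and at least 5 in each margin in each library. Log2 odds ratios were computed after adding 0.5 reads. The tests between libraries and of exon pairs were tested on simulated data. p-values measure counting error between these samples, and PCR copies are not independent molecules.

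Named exons were the 12 with most reads, the 2 deepest of each gene group, the linked exons and those at the bounds of the rule. Others, such as genes with 3 members, were chosen after their values were seen. The members, gene groups and rules were chosen with earlier results of these data known. Values of a few genes that these rules name are not reported here.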

Additional observations from a re-analysis of the deposited data

How the results depend on the processing

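The rule's thresholds set how many exons are counted. The main count of 351 became 162 with a minimum of 50 reads, 157 with Known models only and 208 with inclusion of 20% to 80%, and was within 1.5 times with a minimum of 10 reads, all pairs of neighbours summed, or bounds of 5% to 95%. With 1 library alone it was 365 to 397. With Known models only, 152 of the 351 stayed. The median inclusion of 61.4% became 54.4% with a minimum of 50 reads, 44.8% with Known models only and 62.5% with all pairs summed, and was 61.5% to 64.0% with 1 library alone. Members that differed between the libraries numbered 0 with a minimum of 50 reads, Known models only, all pairs summed or a chi-square test, the alternatives run for it. With 1 library this test gives no value.

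Linked pairs with a member, 5 in the main test, numbered 18 when the reads of both libraries were summed, 40 with any spanning intron (chosen after seeing the data), and 8 to 15 with 1 library alone, where the 5 are called by construction. The share called over all pairs or exons was taken only for the main tests and for any spanning intron. The other counts of links in this paragraph have no background share, and no change in linkage among members is read from them. With Known models only 15 rather than 74 such pairs could be tested and 5 were called: Cbarp and Mprip were lost, and pairs in Agfg1 and Mbnl2 gained. Without incomplete splice matches 4 of 68 were called, without Cbarp, and with a minimum of 50 reads 6 of 49, with a pair in Ktn1 gained. Links to the first exon, 2 in the main test, numbered 0 with a minimum of 50 reads, where 17 members rather than 38 were tested, 5 with summed reads and 2 to 3 with 1 library alone. With Known models only 9 members were tested and 2 called: Sphkap was lost and Zmynd11 gained. Links to the last exon, 0 in the main test, numbered 1 with Known models only, 1 with summed reads and 0 to 2 with 1 library alone, with Gpm6b among them. No paired analysis was possible because there is 1 group. Depth limits most members: with a median of 46 and 56 reads, the 95% intervals of single values are a median of 22.9 and 21.3 points wide.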
